A study of Mus musculus with 4 samples.

Results

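A set of 9 secreted factor genes, of 50600 genes counted, was followed in mouse T cells: Il3, Csf2, Csf1, Lif, Osm, Ebi3, Il12a, Il16 and Mif. They are growth factors and helper cytokines other than the signature cytokines of polarised effector T cells, and they were taken from a list of gene names. The data are RNA-seq libraries from 4 biological replicates of 1 group, primary T cells of the inbred mouse strain C57BL/6NJ, and there is no second group, so the values describe levels and no treatment contrast. The labels give no genotype change, no treatment and no T cell subset, list the sex as not collected and the developmental stage as unknown, and give all 4 libraries the same donor identifier. They link a differentiation protocol whose text was not used here. The alignment names in all 4 file headers hold the words Th0 and activated and a time of 48 h, which the labels do not repeat. Nothing in the sources used here says whether the replicates came from separate animals, so each p-value measures the spread between these 4 libraries, which may be technical.

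Interleukin 3, GM-CSF (from Csf2) and M-CSF (from Csf1) instruct blood progenitors, mast cells, granulocytes and macrophages. Activated T helper cells are a classical source of the first pair, whereas M-CSF comes largely from stromal and other cells. LIF and oncostatin M belong to the interleukin 6 family and signal through the shared receptor chain gp130. EBI3 and the p35 chain made from Il12a are subunits of the interleukin 12 family and are secreted as parts of heterodimers: EBI3 pairs with p28 to form IL-27 and with p35 to form IL-35, and p35 pairs with p40 to form IL-12. IL-16 is made as a precursor that is cut before release, and MIF is a stored cytokine that is made by most cell types.

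The 4 libraries held from 45110199 to 127755788 counts assigned to genes, a 2.83-fold range, and their TMM scaling factors lay between 0.9956 and 1.005. All 14 T cell identity markers (such as the T cell receptor genes Trac, Trbc1 and Trbc2, and Cd5) were above 1 CPM (counts of a gene scaled to a common library total), with a summed level of 5045 to 5163 CPM in the 4 libraries. Markers of other cell types summed to far less. For 10 macrophage and monocyte markers the sum was 4.66 to 6.31 CPM, with Lyz2, Fcgr1, C1qa and C1qb at 0 counts and Cd68 (2.69 CPM) and Adgre1 (2.60 CPM) above 1 CPM. The sum was 5.59 to 8.15 CPM for 8 dendritic cell markers, with Itgax, Clec9a and Cd209a at 0 and Zbtb46, at 5.76 CPM, above 1 CPM. It was 3.41 to 5.55 CPM for 8 B cell markers, with Ebf1 (1.53 CPM) above 1 CPM. It was 13.9 to 16.4 CPM for 8 CD8 and cytotoxic markers, of which Cd8b1 (9.62 CPM), Nkg7 (2.47 CPM) and Eomes (2.34 CPM) were above 1 CPM while Cd8a stood at 0.279 CPM. The sums were 1.65 to 2.58 CPM for 8 mast cell and basophil markers with 6 at 0 counts and Hdc (1.65 CPM) above 1 CPM, 0 to 0.111 CPM for 8 neutrophil markers with 5 at 0, 0.562 to 0.650 CPM for 8 NK cell markers with 3 at 0, and 0.443 to 1.69 CPM for 8 erythroid and platelet markers with 5 at 0. For 8 stromal and endothelial markers the sum was 28.9 to 32.2 CPM, of which Pecam1, which some T cells also express, was 26.9 CPM. Pdgfrb, at 2.90 CPM, was also above 1 CPM. The part of such other cells in the levels below was not tested.

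Of the 9 genes, 8 were above 1 CPM (limma, log2 values, Benjamini-Hochberg adjusted p between 2.41e-17 and 1.11e-08) and 1, Il12a, was below it. Of all 23365 genes with a count, 47.4% were above 1 CPM and 48.3% were below, and the median gene stood at 0.902 CPM against a median of 81.9 CPM for the 9 genes. Levels of different genes are compared below in TPM, in which each count is divided by the summed exon length of its gene and the result is scaled to the same total as CPM. On this scale the order was Mif, Il3, Ebi3, Csf2, Lif, Il16, Osm, Csf1 and Il12a, and the 8 expressed genes spanned a 641-fold range. In bulk RNA a gene expressed by few cells and a gene with little RNA in every cell cannot be told apart.

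**Figure D1:**
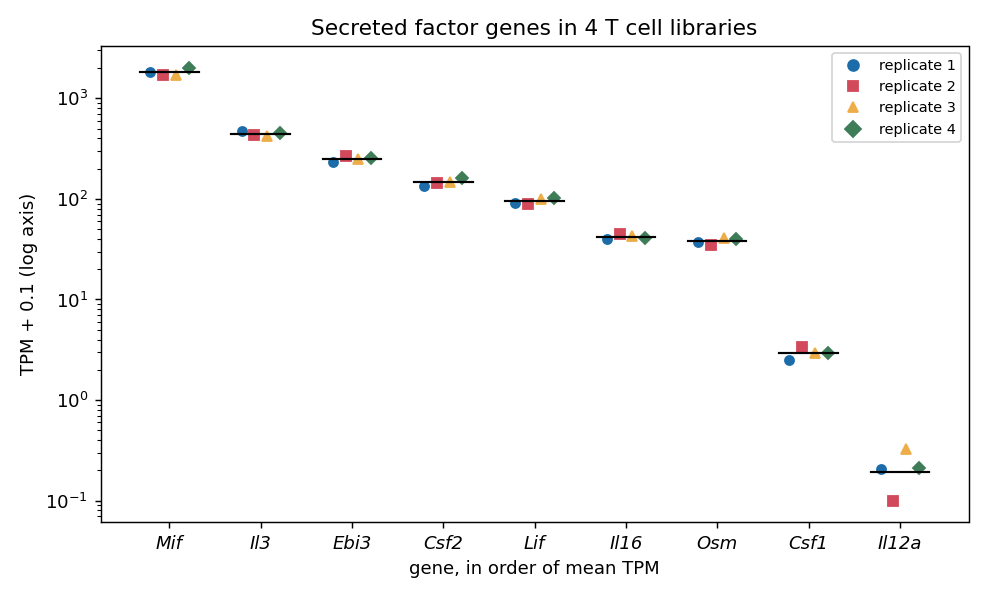
Level of each gene in TPM + 0.1 on a log axis; each point is 1 of the 4 libraries and the black line is their mean on the log scale. Mif lies highest at about 1821 TPM, 6 genes lie between 37.9 and 447 TPM, and Csf1 (2.84 TPM) and Il12a (0.111 TPM) lie apart at the bottom.

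Within each library the TPM of all 36 pairs of the 9 genes was compared, and 35 pairs differed (limma on the log2 ratio, adjusted over the 36 pairs). The exception was Osm and Il16, which are neighbours in the order. All 36 pairs had the same gene on top in 4 of 4 libraries. The order depends on the division by length: in CPM, 7 of the 36 pairs turned, all of them among Il3, Ebi3, Csf2, Lif and Il16. The size of a ratio to Il12a, which had 0 counts in replicate 2, depends on the 0.1 TPM added before taking logs. An exact sign-flip test of a single pair cannot go below p = 0.125 with 4 libraries. The calls therefore rest on the spread that limma pools over the pairs. The 36 ratios are built from 9 genes and are not independent, so this pooling can make p-values too small.

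Among the myeloid growth factors Il3 was the highest, Csf2 followed and Csf1 was low. Il3 (ENSMUSG00000018914.5, mm10 chr11:54265303-54267277, minus strand) encodes a growth factor for mast cells, basophils and multipotent progenitors. It measured 473, 433, 426 and 454 TPM in replicates 1 to 4, a mean of 447 ± 20.9 (SD, n = 4). Its CPM varied within a 1.13-fold range, and its mean TPM ranked 313 among the 15076 protein-coding genes with a count. Csf2 (ENSMUSG00000018916.5, chr11:54247271-54249667, minus strand) encodes GM-CSF, which acts on granulocytes, macrophages and dendritic cells. Its level was 134, 143, 147 and 161 TPM, a mean of 146 ± 11.4 (SD, n = 4) and rank 1404. Replicate 4 was the highest and replicate 1 the lowest. Csf1 (ENSMUSG00000014599.10, chr3:107741048-107760469, minus strand) encodes M-CSF, the survival factor of macrophages. It stood at 2.43, 3.26, 2.87 and 2.81 TPM, a mean of 2.84 ± 0.341 (SD, n = 4) and rank 9780. Those levels rest on 1229 counts over the 4 libraries, against 22867 for Il3 and 9623 for Csf2.

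The 3 growth factors did not overlap in any library. Il3 exceeded Csf2 by 1.61 ± 0.15 on the log2 TPM scale (SD, n = 4, limma adjusted p = 6.67e-06), a 3.06-fold difference. That ratio was widest in replicate 1 (3.53) and narrowest in replicate 4 (2.81); Il3 was highest and Csf2 lowest in replicate 1. Csf2 exceeded Csf1 by 5.64 ± 0.17 on the same scale (limma adjusted p = 1.34e-07), or 49.9-fold. Il3 and Csf2 are neighbours on chromosome 11, transcribed in the same direction with 15635 bases between them. The only annotated gene in that gap, Gm12223, overlaps Csf2 on the opposite strand and had 0 counts.

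The promoters of Il3, Ebi3 and Mif, the 3 genes with the highest TPM, are shown because they carry the most abundant of these transcripts (RefSeq, GRCm38.p6, 250 bases before to 50 bases after the annotated start, on the strand of the gene, 5′ to 3′). Capitals mark matches on either strand to the short motifs described after them. The windows are chr11:54267230-54267529 for Il3, chr17:55952373-55952672 for Ebi3 and chr10:75860228-75860527 for Mif.
Il3: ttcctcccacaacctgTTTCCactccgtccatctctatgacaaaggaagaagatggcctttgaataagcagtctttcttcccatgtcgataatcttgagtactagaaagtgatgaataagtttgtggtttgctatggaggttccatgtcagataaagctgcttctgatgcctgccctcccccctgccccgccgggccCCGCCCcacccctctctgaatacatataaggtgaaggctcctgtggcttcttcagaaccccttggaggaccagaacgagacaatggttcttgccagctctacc
Ebi3: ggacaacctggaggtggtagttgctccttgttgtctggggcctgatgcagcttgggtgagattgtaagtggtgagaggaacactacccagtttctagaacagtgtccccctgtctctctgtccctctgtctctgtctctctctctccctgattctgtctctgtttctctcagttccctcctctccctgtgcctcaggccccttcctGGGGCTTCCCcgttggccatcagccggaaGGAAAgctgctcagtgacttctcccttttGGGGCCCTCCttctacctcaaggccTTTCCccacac
Mif: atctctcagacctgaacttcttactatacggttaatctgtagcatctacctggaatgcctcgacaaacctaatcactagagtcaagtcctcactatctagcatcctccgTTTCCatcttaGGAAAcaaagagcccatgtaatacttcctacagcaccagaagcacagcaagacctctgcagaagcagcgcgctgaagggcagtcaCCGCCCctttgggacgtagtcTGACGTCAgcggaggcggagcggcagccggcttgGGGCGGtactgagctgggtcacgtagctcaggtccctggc

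A set of 6 motifs was searched on both strands in 32851 promoter windows of the same length, and 8 of the 9 genes had a window. Osm is named only. The core letters of NFAT sites, GGAAA, the calcium-regulated factor of activated T cells, occurred in windows of all 8 genes, but also in 61.3% of all windows. The GC box GGGCGG was found for 5 genes (Csf1, Csf2, Il12a, Il3 and Mif) and in 35.7% of all windows. The kappaB motif was found for Csf1, Ebi3, Il16 and Lif and in 8.46% of all windows; it can share bases with the NFAT core. The AP-1 letters TGANTCA were found for Il16 and Lif and in 7.81% of all windows. The cAMP response element TGACGTCA, seen in the Mif window, was in 1.79% of all windows. The TATA box letters TATAAA, found in 13.6% of all windows, were in 0 windows of these genes. These are matches of letters in 1 window length and not binding sites, and these libraries hold no measurement of factor binding. Il16 had 3 windows and Il12a 2, which gives these genes more chances of a match than a gene with 1 window. No window of Csf2 or Il16 holds the gene start that the count files use.

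Of the receptor chains for these growth factors, the ligand-specific alpha chains were above 1 CPM and the signalling beta chains, as counted, were below it. Il3ra measured 9.84, 8.53, 8.40 and 8.19 CPM, and Csf2ra 11.1, 11.9, 14.8 and 16.4 CPM, both above 1 CPM. Csf2rb, the common beta chain, was at 0.327 ± 0.209 CPM and its mouse paralogue Csf2rb2, the beta chain particular to interleukin 3, at 0.573 ± 0.0720 CPM (SD, n = 4), both below 1 CPM. Their transcripts are 95.1% identical over 63.3% of the Csf2rb sequence, so the split of counts between this pair is uncertain. Reads that match several places were not counted, so both levels may also be too low. How many such reads there were was not measured. Together the pair had 82 + 166 counts. Per length, Il3 had 20.6 times the summed counts of Il3ra (95% counting interval 19.8 to 21.5), and Csf2 had 5.65 times those of Csf2ra (5.47 to 5.83). These intervals cover counting error only, and the libraries spread more widely. In replicates 1 to 4 the TPM ratio of Il3 to Il3ra was 19.6, 20.7, 20.4 and 22.5. For Csf2 to Csf2ra it was 6.55, 6.48, 5.28 and 5.29. Csf1r, the M-CSF receptor and a macrophage marker, had 1 count over all 4 libraries, so the per-length ratio of Csf1 to it spans 204 to 44903 in counting error. Il34, the other ligand of that receptor, had 5 counts.

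Both gp130 ligands were expressed, Lif more than Osm. Lif (ENSMUSG00000034394.14, chr11:4257557-4272514, plus strand) encodes leukaemia inhibitory factor, known for keeping embryonic stem cells undifferentiated and for opposing Th17 cells. It measured 90.1, 89.4, 98.8 and 102 TPM, a mean of 94.96 ± 6.13 (SD, n = 4), with replicates 3 and 4 above replicates 1 and 2. Osm (ENSMUSG00000058755.3, chr11:4236420-4241026, plus strand) encodes oncostatin M, which acts mainly on stromal cells, endothelium and hepatocytes. It measured 36.9, 34.8, 40.3 and 39.5 TPM, a mean of 37.9 ± 2.49 (SD, n = 4). The 2 genes are neighbours on chromosome 11 in the same direction, with 16530 bases and 0 annotated genes between them.

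The levels of Lif and Osm did not overlap, and their ratio varied little. Lif over Osm was 2.44, 2.56, 2.45 and 2.57 in TPM, or 1.32 ± 0.04 on the log2 scale (SD, n = 4, limma adjusted p = 2.83e-06). Counting error alone gives an SD of 0.0403 for this ratio, close to the observed 0.0411. Over the 28 pairs among the 8 expressed genes the SD of the log2 ratio ran from 0.0396 (Ebi3 and Il16) to 0.231 (Csf1 and Mif). Il3 and Csf2, the other neighbouring pair, had an SD of 0.145 against 0.0373 from counting.

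The shared chain of their receptors was present and the other chains, from Lifr and Osmr, were near 0. Il6st, which encodes gp130, stood at 77.7 ± 2.17 CPM (SD, n = 4). Lifr had 29 counts over all libraries (0.102 CPM, exact Poisson 95% interval 0.0686 to 0.147), and Osmr had 11 counts (0.0388 CPM, 0.0194 to 0.0695). Per length Lif had 2814 times the summed counts of Lifr (95% counting interval 1959 to 4201), and Osm 3495 times those of Osmr (1953 to 7001). Of the other ligands of this family, Clcf1 was above 1 CPM at 13.9, 19.5, 15.6 and 14.6 CPM, with replicate 2 the highest. Il6 (90 counts), Il11 (71), Cntf (81) and Ctf1 (115) were each below 1 CPM. The Cntf value is uncertain, since a transcript of it shares 79.3% of its length with Zfp91 at 99.9% identity.

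Of the interleukin 12 family subunits, Ebi3 was abundant and Il12a was almost undetected. Ebi3 (ENSMUSG00000003206.6, chr17:55952623-55957021, plus strand) measured 234, 265, 251 and 256 TPM, a mean of 252 ± 13.1 (SD, n = 4) and rank 682 among protein-coding genes. Il12a (ENSMUSG00000027776.12, chr3:68690644-68698547, plus strand) had 3, 0, 14 and 3 counts, or 0.106, 0, 0.224 and 0.113 TPM. Replicate 3, the deepest library, holds most of its 20 counts, and without it the mean level fell from 0.0546 to 0.0363 CPM. Over all libraries Il12a stood at 0.0706 CPM (exact Poisson 95% interval 0.0431 to 0.109, which covers counting error only), below 1 CPM with limma adjusted p = 1.15e-07. Per length the summed counts of Ebi3 were 1755 times those of Il12a (95% counting interval 1136 to 2873).

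Most other dimer partners were also low. Il27, which encodes the p28 partner of EBI3, had 2 counts in all, both in replicate 3, which gives a per-length ratio of Ebi3 to Il27 between 2916 and 86966 in counting error. Il12b, which encodes p40, had 0 counts in 283149433, a level under the 3-count floor of 0.0106 CPM and with an exact Poisson 95% upper limit of 0.0130 CPM. Il23a, the p19 partner of p40 in IL-23, stood at 1.04 ± 0.352 CPM (SD, n = 4) and was called neither above nor below 1 CPM. Among the receptor chains Il27ra (67.1 ± 4.22 CPM) and Il12rb1 (157 ± 14.8 CPM) were above 1 CPM. Il12rb2, the signalling chain for IL-12, was at 1.58, 2.00, 1.03 and 1.05 CPM and not called (adjusted p = 0.0810, limma), and an annotated transcript of it shares 54.7% of its length with Serbp1 at 100% identity, so that value is uncertain.

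**Figure D2:**
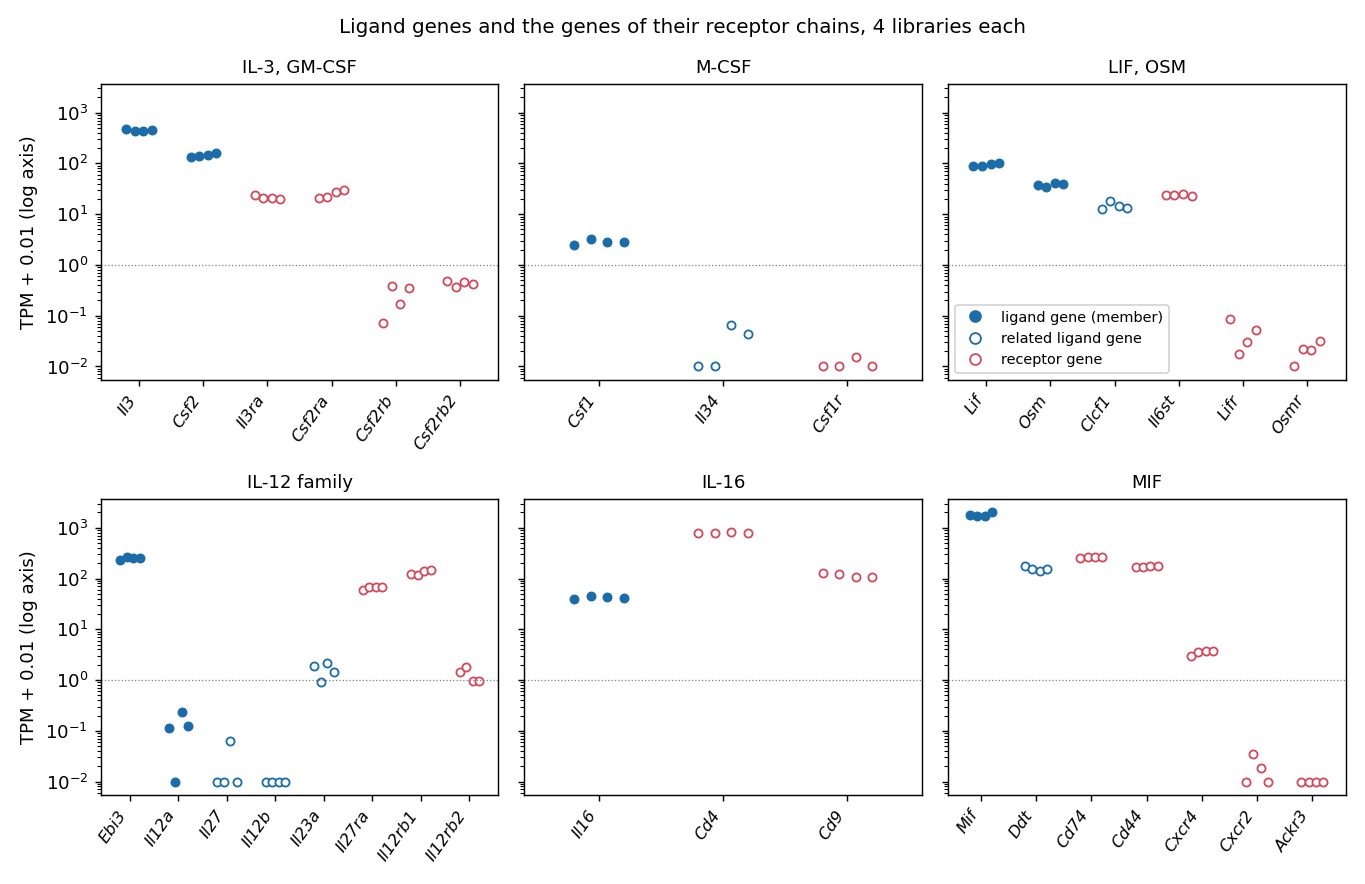
Level in TPM + 0.01 on a log axis of the 9 ligand genes (filled blue), related ligand genes (open blue) and receptor genes (open red), 1 point per library in the order of replicates 1 to 4, in 6 ligand systems; the dotted line marks 1 TPM and points at the bottom have 0 counts. Csf2rb, Csf2rb2, Csf1r, Lifr and Osmr lie below 1 TPM while the ligand genes Il3, Csf2, Csf1, Lif and Osm lie above it. Il34, Cxcr2 and Ackr3 also lie below 1 TPM, as do Il12a, Il27 and Il12b beside Ebi3.

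Il16 and Mif, both of which act outside the classical cytokine receptors, were expressed at very different levels. Il16 (ENSMUSG00000001741.12, chr7:83642825-83745726, minus strand) encodes a chemoattractant precursor whose receptor is CD4. It measured 39.6, 45.0, 42.9 and 41.2 TPM, a mean of 42.2 ± 2.31 (SD, n = 4), with replicate 2 the highest. Il16 was 0.15 ± 0.14 above Osm on the log2 TPM scale (SD, n = 4), higher in 4 of 4 libraries but not called (limma adjusted p = 0.0898). The 95% interval of the difference, given as Osm minus Il16, ran from -0.34 to 0.04, so a difference of either sign near 0 and one of up to 1.27-fold in favour of Il16 are both inside it. The exon length of 7865 bases that the count files give Il16 is the longest of the 9 and sums several isoforms. With the longest coding transcript (5260 bases) as the length, Il16 was at 45.8 TPM and Osm at 27.5 TPM, and the pair differed (log2 ratio -0.73, limma adjusted p = 2.07e-04).

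Both reported receptors of IL-16 were expressed. Cd4 measured 924, 925, 945 and 927 CPM and Cd9, an alternative receptor, 68.9 ± 6.08 CPM (SD, n = 4). Cd4 was higher than Il16 per length in 4 of 4 libraries.

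Mif (ENSMUSG00000033307.7, chr10:75859353-75860240, minus strand) was the most abundant of the 9 genes. It measured 1817, 1717, 1725 and 2025 TPM, a mean of 1821 ± 143 (SD, n = 4), and ranked 32 among protein-coding genes. Replicate 4 was the highest, and the lowest value of Mif was 3.63 times the highest value of Il3. Mif supplied 64.0% ± 1.31 of the summed TPM of the 9 genes, Il3 15.7%, Ebi3 8.87%, Csf2 5.14%, Lif 3.34%, Il16 1.49%, Osm 1.33% and Csf1 0.1003%. The Mif level is uncertain because 6 annotated genes, 5 of them processed pseudogenes, match its transcripts at 90% identity or more over at least 50% of the length. They held 1100 counts together, 0.998% of the 110222 counts of Mif; how many reads were dropped as matching several places was not measured. The other 8 genes had no such match.

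Ddt, the paralogue of Mif that encodes a related cytokine, was also expressed, at 35.4 ± 3.46 CPM (SD, n = 4). In TPM Mif was 10.3, 11.1, 12.1 and 12.98 times Ddt. Of the reported MIF receptors Cd74 stood at 108 ± 3.25 CPM, Cd44 at 342 ± 8.75 CPM and Cxcr4 at 1.85 ± 0.178 CPM (SD, n = 4), all above 1 CPM. Cxcr2 had 2 counts and Ackr3 had 0.

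Of 90 genes in 7 lists of related genes, 69 were above 1 CPM, against 47.4% of all genes with a count; the lists were chosen for T cells and these ligands, so nothing particular to them is read from that. All 12 signal transducers were above 1 CPM, led in TPM by Jak2 (334 TPM), Jak1 (165), Stat5a (161) and Ptpn11 (150). All 9 feedback and target genes were above it, with Junb at 1054 TPM and the kinase genes Pim2 at 229 and Pim1 at 125. Cish, a STAT5-induced inhibitor, was at 87.0 TPM. All 19 transcription factors of inducible cytokine genes and all 12 cytokine mRNA decay factors were above it, the second group led by Khsrp (354 TPM), Zfp36l1 (307), Zc3h12d (163) and Zfp36l2 (108). Among 6 processing proteases 5 were above 1 CPM and Mmp9 was below. Among the 18 receptor genes 10 were above, 6 below, 1 undecided and 1 without a count. The lowest share was in the 15 partner subunits and related ligands, of which 3 were above 1 CPM (Ddt, Clcf1 and Flt3l, whose transcripts overlap Gm45713 at 100% identity over 63.2% of the length), 10 below, 1 undecided and 1 without a count. The Csf3 (2 counts), Kitl (13 counts) and Il5 (32 counts) genes, further growth factor genes of that list, were below 1 CPM.

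The 9 genes also differ in the AU-rich pentamer ATTTA of the 3′ untranslated region, the element by which decay factors such as those of the Zfp36 family recognise short-lived cytokine mRNAs. It was counted in the 3′ untranslated region of 1 annotated coding transcript of each of 21004 genes (GENCODE M21, mm10, transcript strand only). It was present in 7 of the 9 genes, against 65.0% of all genes. Csf2 had 9 in 317 bases, or 28.4 per kb, a density reached by 0.0857% of genes. Il12a had 6 in 497 bases (12.1 per kb, reached by 0.705% of genes), Il3 1 in 101 bases (9.90 per kb, 1.28%) and Osm 6 in 1017 bases (5.90 per kb, 5.02%). The Il3 density rests on 1 match at base 93 of the shortest of these regions, so it depends on where the annotation ends. Ebi3 (4.08 per kb), Lif (2.20) and Csf1 (1.89) were above the median of 1.23 per kb, and Mif and Il16 had 0. The overlapping double pentamer ATTTATTTA was in Csf2 (5 copies) and Il12a (1 copy) and in 6.14% of all genes.

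The stretch with most pentamers is shown for the 4 genes with more than 5, as 30 bases each on the transcript strand, 5′ to 3′, with T for U and the pentamers in capitals. The stretches are chr11:54247325-54247354 (minus strand) for Csf2, chr3:68698436-68698465 (plus) for Il12a, chr11:4240945-4240974 (plus) for Osm and chr11:4272414-4272443 (plus) for Lif.
Csf2: taaatATTTATTTATTTATTTATTTAtttt
Il12a: ctATTTAtATTTATTTAttttctATTTAtt
Osm: ttttatATTTAtaaggcctATTTAtaatgt
Lif: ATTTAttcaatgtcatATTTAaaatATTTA

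The order of the 9 genes in pentamer density was not their order in TPM, and an association between density and level was not tested. Csf2 with the densest element stood behind Mif, Il3 and Ebi3 in TPM, Il12a with the next densest stood last, and Mif without one stood first. In Csf2 the pentamers lie together behind a stretch without any, and in Lif they lie in 3 groups over 3180 bases. These counts describe the annotated sequence, and RNA stability was not measured.

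**Figure D3:**
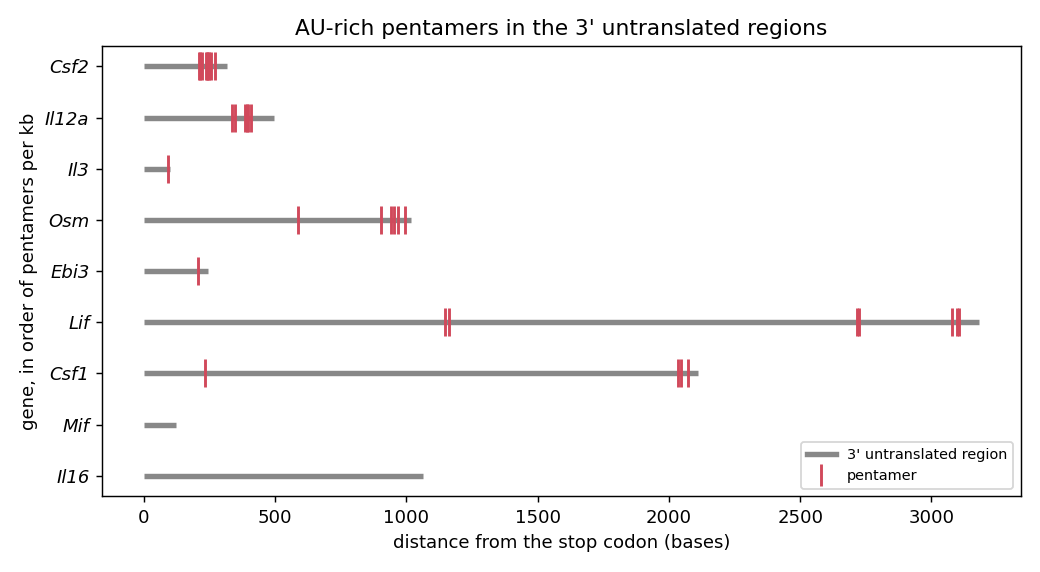
Position of each AU-rich pentamer (red tick) along the 3′ untranslated region (grey bar) of 1 transcript per gene, as distance from the stop codon in bases, with genes in order of pentamers per kb. Csf2 has 9 ticks in 317 bases, and Mif and Il16 have none.

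The 8 expressed genes varied little over the 4 libraries. Their coefficient of variation in CPM ran from 5.11% (Ebi3) to 11.9% (Csf1), and the highest library was 1.13 to 1.34 times the lowest. Csf1 was at 3.76, 5.03, 4.36 and 4.33 CPM, and counting error alone gives it a coefficient of variation of 6.08%, the largest of the 8. For Mif counting gives 0.642% against 8.17% observed. None of the 8 genes was more variable than genes of like abundance (0 called by edgeR's goodness-of-fit test against the trended dispersion, and 0 at an unadjusted p under 0.05), where 0.422% of 13279 genes were called. Il12a was too low for that test.

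No library was high or low for all genes. Replicate 4 was highest for Csf2, Lif and Mif, replicate 2 for Csf1, Ebi3 and Il16, replicate 1 for Il3, and replicate 3 for Osm and Il12a. Replicate 1 was lowest for Csf2, Csf1, Ebi3 and Il16, replicate 2 for Lif, Osm and Il12a, and replicate 3 for Il3 and Mif. The largest deviation of an expressed gene from its mean was 0.21 on the log2 scale, for Csf1 in replicate 2.

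**Figure D4:**
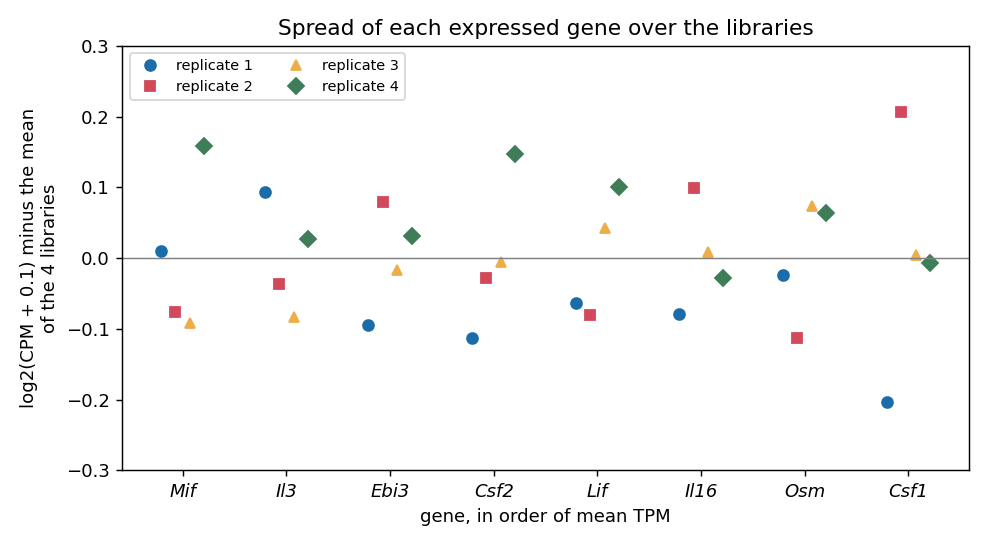
Deviation of log2(CPM + 0.1) from the mean of the 4 libraries for each of the 8 expressed genes, 1 point per library. All points lie within 0.21 of 0, with Csf1 in replicates 1 and 2 the widest, and no replicate lies on 1 side of 0 for all 8 genes.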

How the data were processed

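RNA was sequenced from 4 libraries of 1 group. The deposited values are whole-number read counts per gene, with an exon length column; per the file headers they were counted by the authors with featureCounts 1.4.6-p4 over the exons of GENCODE M13 (mm10), read pairs with both ends aligned, on the reverse strand (option 2), with no option for multi-mapping or overlapping reads set. For the aligner version and trimming, the headers and labels read here give nothing. The assay is total RNA-seq by its label, while the linked protocol is named for polyA+ RNA. The replicate numbers in the labels were used, and 0 per-sample columns were left out.

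From the counts, CPM (per library total) and TPM (per exon length) were computed. Levels were tested against 1 CPM with limma 3.58.1 on log2(CPM + 0.1), one-sided each way, over all genes with a count; pairs of genes with limma, two-sided, on differences of log2(TPM + 0.1); and variability with edgeR 4.0.16 (TMM scaling, expression filter, goodness of fit to the trended dispersion). All p-values were adjusted by Benjamini-Hochberg at 0.05. Sequences came from GENCODE M21 and RefSeq tables of the same build, and similar transcripts were found with blastn 2.17.0+. Gene symbols matched 50376 of 50600 identifiers. The tests were tried on simulated counts. For the pair test, the draws with equal levels were already logged before the test took logs again. They therefore do not give its rate of false calls on TPM. DESeq2 1.42.0 size factors were 1 alternative. Intervals and floors (3 counts) cover counting error only, since the files carry no molecular identifiers. The genes and lists were chosen with earlier results of these data known. All 9 genes and any gene of the partner and receptor lists were named with values; from other lists the 4 highest in TPM above 1 CPM, or any marker of another cell type. Mmp9, Trbc1, Gm12223, Gm45713, Zfp91 and Serbp1, outside this rule, were named after their values were seen. Some genes of the lists are counted but not reported here by name.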

Additional observations from a re-analysis of the deposited data

Results flagged for a closer look

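In 5 of 39 genes checked, 1 library stood apart from the other 3 by more than Dixon's 95% limit for 4 samples; chance flags about 1 in 20 groups, and none of the 9 genes was among the 5. Cd4, the IL-16 receptor, was at 945 CPM in replicate 3 against 924 to 927 CPM in the others. The other 4 genes had at most a few counts in a library. Il27 was at 0.0157 CPM in replicate 3 and 0 elsewhere, Csf1r was at 0.00783 CPM in replicate 3 and 0 elsewhere, and Csf3 was at 0.0375 CPM in replicate 4 and 0 elsewhere. Kitl was at 0 CPM in replicate 2 and at 0.0527 to 0.0562 CPM in the others.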

How the results depend on the processing

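Under other pseudocounts, scalings, filters, thinning to the smallest library and each library left out, the number of the 9 genes above 1 CPM stayed at 8; it was 8 against 2 CPM and 7 against 5 CPM, where Csf1 was lost. Of the 90 related genes 69 to 70 were above 1 CPM, 35 to 36 of 36 pairs differed, and 0 genes were called variable. Single-gene levels kept their call in 98 of 98 alternatives. Without the length correction 7 of the 36 pairs turned, 6 of them past the threshold; CPM by construction favours the longer gene. In log2 CPM, Il3 over Ebi3 became -0.067 (limma adjusted p = 0.396), Il3 over Lif -0.55, Il3 over Il16 -0.24, Csf2 over Lif -1.82, Csf2 over Il16 -1.50, Ebi3 over Il16 -0.17 and Lif over Ebi3 0.49. No pair turned under the other pair settings (pseudocounts, longest transcript, each library left out). Osm against Il16 passed the threshold in CPM (-1.94), with a pseudocount of 1 (-0.15, limma adjusted p = 0.0222) and with the longest coding transcript as length (-0.73), a choice made after seeing the data. With the pseudocount of 1 the ratio did not grow: it was -0.151, against -0.155 in the main fit. Only the p-value moved, and it fell for other pairs too. For Il3 over Csf2 the limma adjusted p went from 6.67e-06 to 4.69e-46. Pooling over ratios that share genes can make p-values too small, and 4 libraries alone cannot carry the lower value. No paired analysis was possible because there is only 1 group. Below 3 counts, 0.0235 to 0.0665 CPM by library, depth limits what can be said, which touches Il12a and its partners.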
